A study of Mus musculus with 130 samples.

Results

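Livers that held much RNA of the macrophage gene Cd68 were compared with livers that held little of it, in mice of different inbred strains that all ate an iron-loaded diet. The series holds 130 liver libraries of male mice, of which 115 came from a panel of inbred strains and 15 from C57BL/6J mice on different diets. The panel mice received chow for 4 weeks and then 2% carbonyl iron (20000 ppm) for 6 weeks, so the 2 groups compared here share that treatment and neither is an iron-poor control. The strains were chosen by Cd68 alone: the strains of the 115 panel libraries, without the library labelled BXD65/RwwJ and the second mouse of 129X1/SvJ, were ranked by the gene's level in TPM (transcript abundance scaled for length and library size), and the 20 highest (the high-Cd68 group) were set against the 20 lowest (the low-Cd68 group). These 40 libraries are 1 mouse per strain, so strain and individual mouse cannot be told apart, and the labels used here give no age. The high group held 9 BXD, 5 AXB/BXA and 6 other inbred strains. The low group held 11 BXD, 2 AXB/BXA, 1 CXB and 6 other inbred strains. BXD strains are recombinant inbred lines of C57BL/6J and DBA/2J, and AXB/BXA strains those of A/J and C57BL/6J, so strains within a family share parental alleles and are not fully independent.

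Macrophages of the liver are mainly Kupffer cells, which sit in the sinusoids, take up aged red cells and debris, break them down in lysosomes and return the iron to the blood through ferroportin. Monocytes that enter the liver during injury can take their place or form other phagocytes beside them. Cd68 encodes macrosialin, a glycoprotein of late endosomes and lysosomes that is abundant in both kinds of cell. In a piece of whole liver, fewer cells of a type and less RNA per cell cannot be told apart.

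Cd68 (ENSMUSG00000018774, chr11:69664213-69666153 on the minus strand of GRCm38) spanned 5.49 to 46.3 TPM over all ranked strains, with a median of 15.6 TPM. In the high group the lowest strain had 21.3, the median was 26.3 and the highest, KK/HlJ, had 46.3 TPM. In the low group the values ran from 5.49 TPM in BXD19/TyJ over a median of 8.68 to 10.4 TPM. These values chose the groups and carry no test. The thresholds cut a continuous distribution. At the upper one BXD63/RwwJ with 21.3 TPM was inside and BXD48a/RwwJ with 21.2 TPM was outside, and at the lower one BXD34/TyJ was inside and DBA/2J outside, both at 10.4 TPM. KK/HlJ stood apart from the next strain, BXA2/PgnJ, which had 33.5 TPM. The counts behind these levels were 228 to 460 in the high group and 73 to 127 in the low group. The panel's C57BL/6J mouse, in the high group, had 27.5 TPM. C57BL/6J mice of the diet study, quantified in a separate table, had 15.6 to 18.1 TPM on 2% iron, 21.5 to 25.9 TPM on 2% iron with cellulose as fibre, and 2.90 to 7.01 TPM on chow, 50 ppm or 500 ppm iron.

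**Figure D1:**
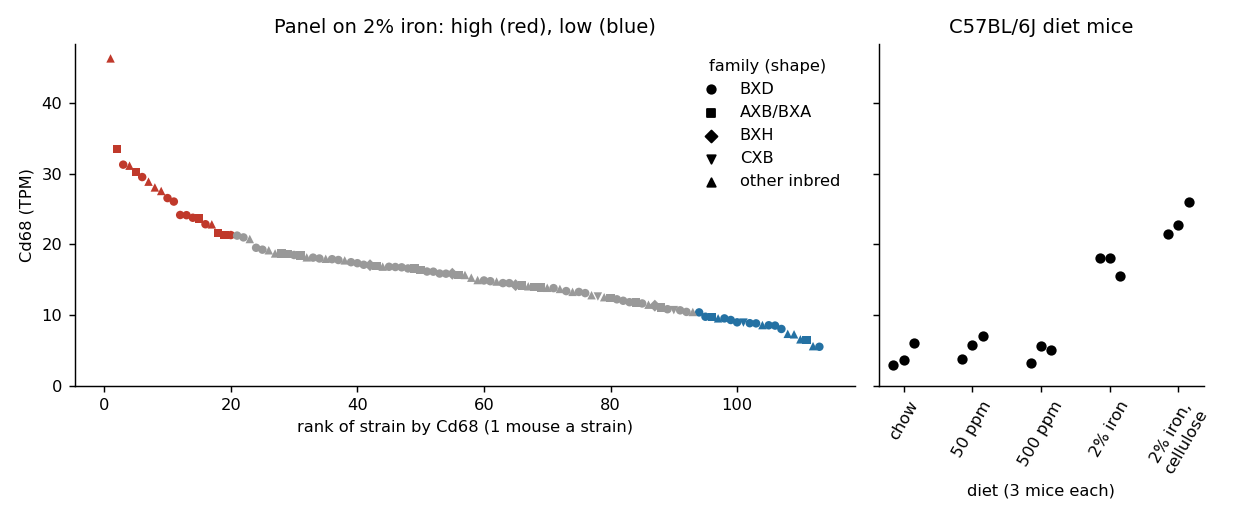
Left, Cd68 in TPM for each ranked panel strain against its rank, with the 20 highest strains in red, the 20 lowest in blue and the strain family as the marker shape; right, Cd68 in TPM of each C57BL/6J diet mouse, 3 per diet. The ranking falls without a break at either threshold, and the 6 mice on 2% iron lie above the 9 mice on the other diets.

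The promoters of Cd68 and of 3 genes of phagocytes that were among those higher in the high group are shown because these genes moved together across strains; the 3 were picked after the search from genes whose window holds the motif. Sequences are the 300 bases from 250 before to 50 after the annotated start, from RefSeq on GRCm38.p6, and capitals mark GAGGAAG or its reverse complement CTTCCTC, a purine-rich motif of the type bound by the myeloid factor PU.1, searched on both strands. Their positions are chr11:69666121-69666420 on the minus strand for Cd68, chr7:25788684-25788983 on the minus strand for Axl, chr3:95526536-95526835 on the plus strand for Ctss and chr4:130913066-130913365 on the plus strand for Laptm5.
Cd68: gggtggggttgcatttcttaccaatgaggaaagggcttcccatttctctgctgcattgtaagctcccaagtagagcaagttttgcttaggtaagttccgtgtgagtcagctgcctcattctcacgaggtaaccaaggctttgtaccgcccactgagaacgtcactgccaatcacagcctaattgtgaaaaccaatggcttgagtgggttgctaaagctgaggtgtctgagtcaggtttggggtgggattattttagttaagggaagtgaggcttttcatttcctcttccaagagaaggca
Axl: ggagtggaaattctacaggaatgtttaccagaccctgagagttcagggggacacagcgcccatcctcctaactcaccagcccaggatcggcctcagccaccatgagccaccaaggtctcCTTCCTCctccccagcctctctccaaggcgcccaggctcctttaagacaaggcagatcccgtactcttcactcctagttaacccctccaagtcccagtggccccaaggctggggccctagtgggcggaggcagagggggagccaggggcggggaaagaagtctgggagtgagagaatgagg
Ctss: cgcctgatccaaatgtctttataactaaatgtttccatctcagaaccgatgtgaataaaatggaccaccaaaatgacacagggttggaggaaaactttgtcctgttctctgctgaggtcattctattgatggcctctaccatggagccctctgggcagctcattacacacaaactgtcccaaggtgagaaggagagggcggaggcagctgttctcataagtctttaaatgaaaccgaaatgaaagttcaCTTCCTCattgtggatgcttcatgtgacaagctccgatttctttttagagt
Laptm5: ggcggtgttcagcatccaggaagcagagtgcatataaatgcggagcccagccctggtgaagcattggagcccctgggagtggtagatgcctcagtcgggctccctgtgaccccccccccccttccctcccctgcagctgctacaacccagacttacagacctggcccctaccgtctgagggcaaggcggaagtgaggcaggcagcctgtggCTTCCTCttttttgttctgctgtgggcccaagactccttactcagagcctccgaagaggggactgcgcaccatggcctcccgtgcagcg
The letters occur in the windows of Axl, Ctss and Laptm5, and they are not in the window of Cd68. They occur in 13.5% of all 27025 promoters of this length. Among the 73 genes of 6 lists described below (Kupffer cells, monocytes, phagocyte activation, Fc and scavenger receptors, lysosome and antigen presentation) that were higher in the high group, 53 had an entry and 20 of these held the motif. With 53 of 73 matched, a comparison of the shares is void, and a match is a description of letters, not of binding.

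Library totals did not differ detectably between the groups, with 12.3 ± 1.35 M counts (SD, n = 20) in the high group and 12.2 ± 2.12 M (SD, n = 20) in the low group (two-sided permutation test, p = 0.922). BXD19/TyJ, the strain with the lowest Cd68, had the deepest library, at 20.57 M. The 100 most abundant genes took 46.3% ± 2.10 (SD, n = 20) of the counts in the high group and 48.3% ± 2.06 (SD, n = 20) in the low group, a difference of -1.96 percentage points (two-sided permutation test, p = 0.0048). BXD strains were 9 of 20 and 11 of 20 (Fisher's exact test, two-sided, p = 0.752). In 2 libraries genes of other cells stood apart from their own group. The low-Cd68 strain BXD27/TyJ had 1142 CPM (counts scaled to library size with TMM factors) of the neutrophil and acute phase gene Lcn2, against 13.9 to 176 CPM in the other 19 low strains, and 37.2 CPM of S100a8, against 0 to 9.33 CPM. The high-Cd68 strain BTBR T<+> tf/J had 175 CPM of the proliferation marker Mki67, against 3.16 to 54.7 CPM in the other 19 high strains. Several results that rest on either library are given with and without it.

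Of 13164 genes tested besides Cd68, 4205 (31.9%) differed between the groups at an adjusted p under 0.05 by the quasi-likelihood test of edgeR. In the high group 2172 genes (16.5%) were higher and 2033 (15.4%) were lower. The sizes were less even: 450 of the higher genes and 53 of the lower genes differed by more than 2-fold. A set of 10 genes did not overlap between the groups at all, with every high-Cd68 strain above every low-Cd68 strain, and no gene showed the opposite. The 10 were Axl, Slc15a3, Clec7a, Prex1, Psap, Dock2, Marcks, Slc7a8, Man1c1 and Ctsb, of which Man1c1 was named only after its values were seen. The near balance of directions depends on the scaling. The TMM scaling factors themselves differed, at 1.06 ± 0.0636 (SD, n = 20) in the high group and 0.949 ± 0.0469 (SD, n = 20) in the low group (two-sided permutation test, p = 2e-05, the smallest that the resamples can give). TMM factors put the median gene at -0.03 (log2), while scaling to library totals alone moved that median to 0.13 and turned the split into 4341 higher against 478 lower. On the authors' TPM the median was 0.16, and 4844 genes were higher against 171 lower. All 2172 higher genes kept a positive difference on both other scales. Of the 2033 lower genes, 1907 kept a negative one with library totals and 1422 on log2(TPM + 1), so a small fall below is relative to the median gene.

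Genes of resident Kupffer cells were higher in the high-Cd68 strains. Of 18 genes on a list of Kupffer cell identity, all tested, 16 were higher and 0 lower, with a median log2 difference of 1.11 against -0.03 over all genes tested. Clec4f, a lectin receptor specific to Kupffer cells, ran from 86.8 over a median of 151 to 225 CPM in the high group and from 42.3 over 79.2 to 135 CPM in the low group. Of the high strains 13 exceeded every low strain (log2 difference 0.88 ± 0.12 SE, adjusted p = 2.91e-07). Vsig4, a complement receptor of Kupffer cells, ran from 30.7 over 56.4 to 77.7 CPM in the high group and from 14.99 over 23.2 to 42.1 CPM in the low group (1.16 ± 0.12 SE, adjusted p = 6.77e-10). Csf1r, the receptor for the growth factor that macrophages need, had medians of 127 and 50.8 CPM, and 18 of 20 high strains lay above every low strain (1.24 ± 0.11 SE, adjusted p = 3.33e-11). Cd5l, a macrophage survival protein, had medians of 202.2 and 83.8 CPM, and the complement genes C1qa, C1qb and C1qc differed by 1.05 to 1.13. The scavenger receptor Marco was more variable: it ran from 14.8 to 160 CPM in the high group and from 1.77 to 80.9 CPM in the low group, where BXD27/TyJ was the highest (1.64 ± 0.36 SE, adjusted p = 0.000611). Marco differed by 1.96 without BXD27/TyJ (adjusted p = 2.19e-05) and by 1.59 without BTBR T<+> tf/J (adjusted p = 0.00108). Folr2 (0.81, adjusted p = 0.106) and Nr1h3, a sterol receptor that hepatocytes also express (-0.16, adjusted p = 0.087), did not pass.

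Summed over the Kupffer list, the high strains held 1177 to 1903 CPM and the low strains 708 to 1149 CPM, with no overlap. AXB12/PgnJ was the lowest high strain, BXD55/RwwJ the highest, and BXD27/TyJ the highest of the low strains.

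Receptors by which phagocytes recognise antibody, dying cells and debris were higher throughout. All 17 genes of a list of Fc and scavenger receptors were higher, with a median difference of 1.14. Axl, a receptor tyrosine kinase for the uptake of dying cells, had the smallest p of all genes. It ran from 43.03 over 64.9 to 93.3 CPM in the high group and from 18.9 over 26.1 to 34.8 CPM in the low group (1.32 ± 0.09 SE, adjusted p = 1.44e-14). Its groups did not overlap. The related kinase Mertk had a smaller difference, with medians of 50.9 and 33.1 CPM (0.67 ± 0.10 SE, adjusted p = 1.23e-06). Clec7a, the beta-glucan receptor dectin-1, ran from 9.59 over 20.5 to 35.2 CPM against 2.42 over 4.58 to 9.30 CPM, again without overlap (2.01 ± 0.15 SE, adjusted p = 1.26e-12). The Fc receptor genes Fcgr1 and Fcgr3 and their signalling partners Fcer1g and Tyrobp differed by 1.14 to 1.29. Fcgr2b, which sinusoidal endothelium also expresses, had the smallest difference of the list at 0.46. The summed level of the list was 532 to 894 CPM in the high strains and 224 to 412 CPM in the low strains.

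Genes that mark lipid-laden or activated phagocytes were in large part higher. Of 15 genes on that list 14 were tested, 10 were higher and 0 lower, with a median difference of 0.86. Gpnmb, a glycoprotein of phagocytes under lysosomal load, ran from 0.747 over 12.1 to 42.8 CPM in the high group and from 0.309 over 1.32 to 8.08 CPM in the low group (2.96 ± 0.44 SE, adjusted p = 1.87e-06). Of the high strains 12 lay above every low strain, while BXD55/RwwJ, the strain with the highest Kupffer sum, had the lowest Gpnmb of the high group. DBA/2J mice are known to carry a nonsense allele of Gpnmb that segregates among BXD strains, and genotypes were not used here. The integrin Itgax (medians 4.31 and 1.03 CPM, 1.94), the elastase Mmp12 (18.8 and 4.50 CPM, 1.98) and the lectin Lgals3 (19.2 and 6.03 CPM, 1.67) were also higher, with adjusted p of 2.25e-10, 7.23e-09 and 1.33e-11. Trem2, the lipid receptor of such cells, differed by 0.49 at 2.28 and 1.69 CPM. Plin2, the coat protein of lipid droplets, had a difference of 0.00 (adjusted p = 0.998).

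**Figure D2:**
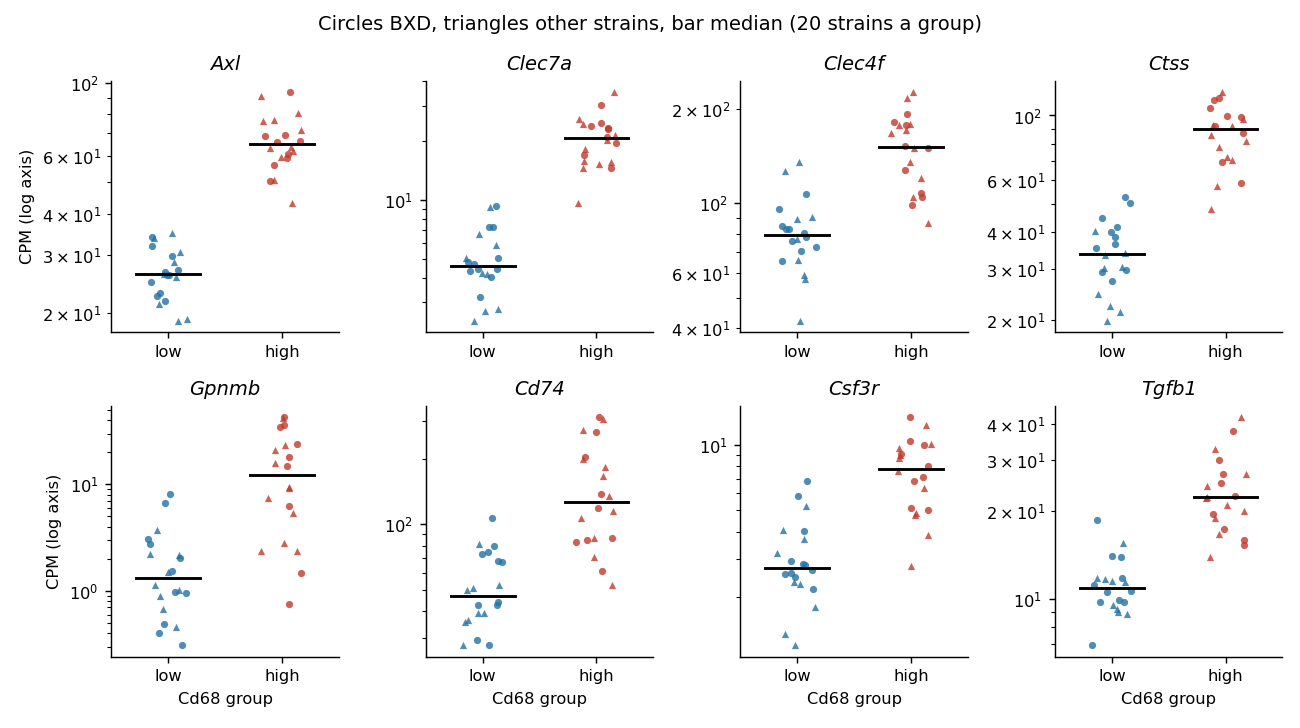
CPM of 8 genes in each of 40 strains on log axes, low-Cd68 group in blue and high-Cd68 group in red, circles for BXD and triangles for other strains, with a bar at the group median. Axl and Clec7a have no overlap between groups, Gpnmb spans the widest range of these 8 genes, and both family symbols show the shift.

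Lysosomal genes were in part higher, in a number that depended on the scaling. Of 21 genes tested, 11 were higher and 2 lower with TMM factors, with a median difference of 0.24. With library totals alone 16 were higher and 0 lower (median 0.40), and on log2(TPM + 1) 17 were higher and 0 lower (median 0.46). The medians over all genes on these 2 scales were 0.13 and 0.16, with 4341 and 4844 of 13164 genes higher. The list's sum overlapped, at 4961 to 6680 CPM in the high strains and 4374 to 5308 CPM in the low strains. The called genes include those that phagocytes express at high levels: the proteases Ctss (medians 89.7 and 33.6 CPM, 1.35 ± 0.12 SE) and Lgmn (111 and 56.6 CPM, 0.99 ± 0.09 SE) and the membrane protein Laptm5 (58.2 and 22.1 CPM, 1.30 ± 0.11 SE). Psap, the precursor of the saposins that help to degrade sphingolipids, ran from 573 over 641 to 737 CPM in the high group and from 385 over 430 to 522.9 CPM in the low group. That difference is small but without overlap (0.55 ± 0.04 SE, adjusted p = 3.13e-12). Ctsb, a broadly expressed cathepsin, was likewise separate at 573 to 814 CPM against 377 to 564.6 CPM (0.44 ± 0.05 SE, adjusted p = 1.28e-08). The membrane protein Lamp1 had medians of 594 and 610 CPM and did not pass (-0.03, adjusted p = 0.695). Lamp2 (-0.20) and the calcium channel Mcoln1 (-0.23) were called lower, but on log2(TPM + 1) both had a positive difference that did not pass.

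Genes of monocyte-derived cells and of antigen presentation were higher too. Of 12 monocyte genes tested, 10 were higher and 0 lower (median 1.05). The list's sum was 98.3 to 363 CPM in the high strains and 37.2 to 144 CPM in the low strains, with 13 high strains above every low strain. Lyz2, the lysozyme of myeloid cells, had medians of 79.5 and 39.4 CPM (1.31 ± 0.16 SE), the integrin chain Itgb2 22.8 and 7.81 CPM (1.45 ± 0.15 SE), and Ly6c2, a surface protein of inflammatory monocytes, 1.81 and 0.894 CPM (1.17 ± 0.24 SE). Ccr2, the receptor that draws monocytes into tissue, had a difference of 0.47 (adjusted p = 0.0532). On the antigen presentation list 9 of 12 genes were higher, and these were the class II genes and their partners. The sum of that list was 682 to 1945 CPM in the high strains and 724 to 1620 CPM in the low strains, with wide overlap. Cd74, the class II invariant chain, ran from 52.7 over 127 to 311 CPM in the high group and from 27.8 over 47.1 to 107 CPM in the low group (1.51 ± 0.21 SE, adjusted p = 6.44e-07). H2-Aa and H2-Ab1 differed by 1.59 and 1.57 and the class II transactivator Ciita by 1.22. The strains carry different H2 haplotypes, whose close copies can share reads, so single H2 genes are uncertain. The class I genes B2m (-0.08), Tap1 (0.15) and Psmb8 (0.09) did not pass. Among 9 chemokines tested 5 were higher and 0 lower. Ccl6, made by macrophages, had medians of 44.1 and 13.6 CPM (1.62 ± 0.25 SE), and the neutrophil attractant Cxcl1 had 7.99 and 12.1 CPM (-0.67, adjusted p = 0.0844).

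Markers of other blood cells moved less evenly. Of 8 neutrophil genes tested, 4 were higher and 0 lower (median 1.34). The granule enzyme Mpo had the largest difference of the higher genes named (3.36 ± 0.71 SE, adjusted p = 0.000355) at low levels, from 0 over 2.15 to 42.01 CPM in the high group and from 0 over 0.139 to 6.24 CPM in the low group. Csf3r, the receptor for the neutrophil growth factor, had medians of 7.79 and 2.73 CPM (1.30 ± 0.19 SE, adjusted p = 8.4e-07). S100a8, a calcium-binding protein abundant in neutrophils, had medians of 5.01 and 0.511 CPM and did not pass (1.23, adjusted p = 0.147). Without BXD27/TyJ its difference was 2.53 (adjusted p = 0.000888), that of Lcn2 was 2.14 (adjusted p = 8.34e-05, against 0.95 and 0.168 with it), and 7 of the 8 neutrophil genes were higher. Mpo then differed by 4.03. Without BTBR T<+> tf/J instead, S100a8 differed by 1.11 (adjusted p = 0.211) and Lcn2 by 0.71 (adjusted p = 0.324), and 3 neutrophil genes were higher. The count was also 3 without KK/HlJ. On log2(TPM + 1), with all strains, 7 neutrophil genes were higher. The summed neutrophil level was 27.5 to 892 CPM in the high strains and 17.7 to 1275 CPM in the low strains, and the 1275 CPM belong to BXD27/TyJ. Of 5 lymphocyte genes tested only the B cell receptor subunit Cd79b was higher (0.99), while 3 were higher on each of the other scales, and the list's sum was 5.87 to 16.98 CPM against 2.37 to 11.3 CPM. Of 7 erythroid genes none passed (median 1.12). Their sum ran from 9.01 to 2722 CPM against 12.6 to 849 CPM, with BTBR T<+> tf/J the highest, and the red cell anion exchanger Slc4a1 had a difference of 2.06 (adjusted p = 0.0641), which was 0.64 (adjusted p = 0.575) without that strain and 3.19 (adjusted p = 0.00416) without BXD27/TyJ. The part of these cells in the other results was not tested.

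Genes of the other cells of the sinusoid were modestly higher. On the list of stellate cells and fibrosis 12 of 16 tested genes were higher and 0 lower (median 0.49). Tgfb1, the growth factor that drives matrix production and that macrophages also make, ran from 13.95 over 22.4 to 42.2 CPM in the high group and from 6.93 over 10.9 to 18.6 CPM in the low group (1.06 ± 0.12 SE, adjusted p = 6.9e-09). Col4a1, a basement membrane collagen, had medians of 88.2 and 43.7 CPM (0.96 ± 0.13 SE). The fibrillar collagen Col1a1 had medians of 7.002 and 4.15 CPM and did not pass (0.70 ± 0.30 SE, adjusted p = 0.0675), nor did Acta2, the actin of activated stellate cells (0.12, adjusted p = 0.723). Of 14 genes of sinusoidal endothelium 9 were higher and 0 lower (median 0.46), among them the growth factor receptor Kdr (80.2 and 53.7 CPM, 0.68 ± 0.14 SE). The summed levels overlapped in both lists, at 372.1 to 814 against 287 to 528 CPM for stellate cells and 335 to 692.6 against 222 to 594 CPM for endothelium. None of 4 bile duct genes tested passed (median 0.20). Cela1, the only gene of the exocrine pancreas list above the filter, was lower (-0.59).

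**Figure D3:**
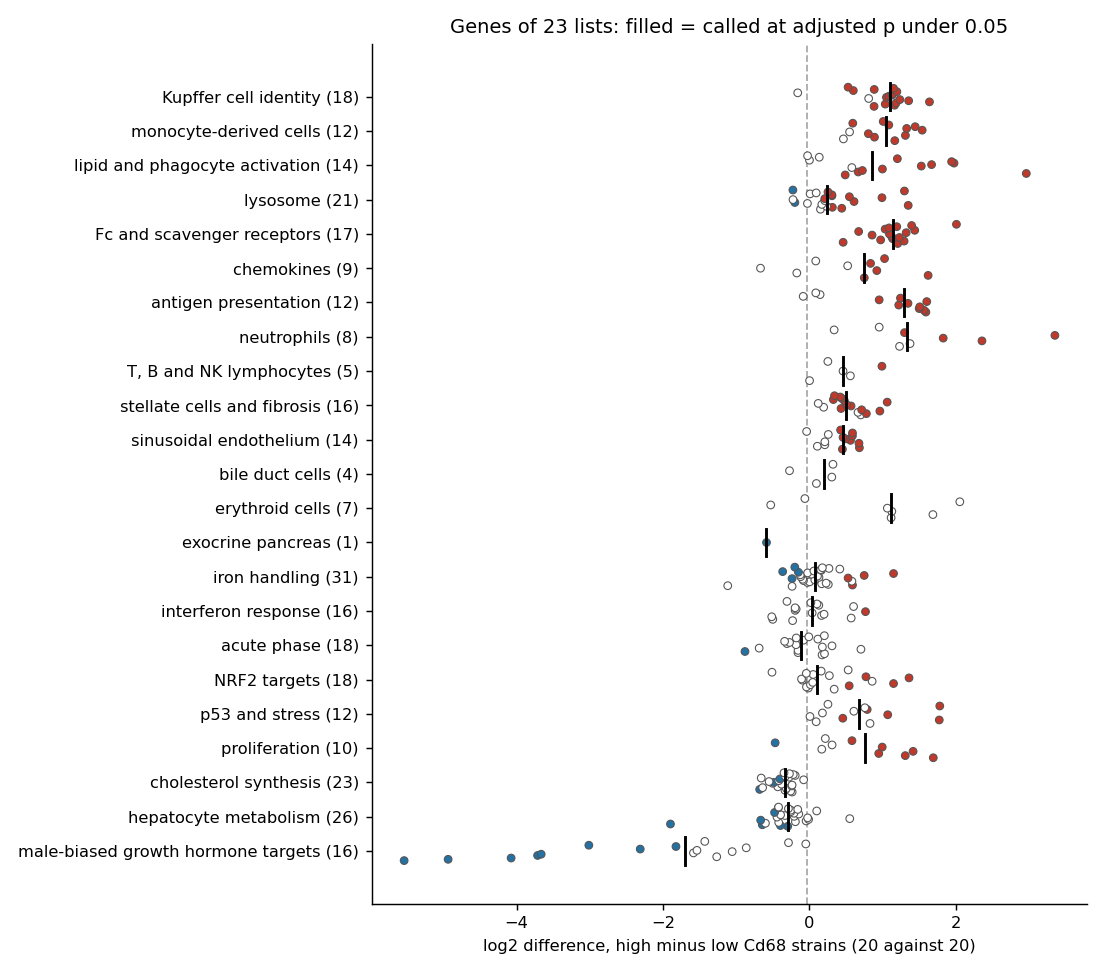
Each point is a tested gene of 1 of 23 lists, placed by its log2 difference between high-Cd68 and low-Cd68 strains; red points were called higher, blue points called lower, open points did not pass, and numbers in brackets are genes tested. Black bars mark list medians and the dashed line the median of all genes. The Kupffer, monocyte, phagocyte activation, and Fc and scavenger lists have medians of 0.86 to 1.14. Those of neutrophils (1.34) and antigen presentation (1.30) are larger, and the erythroid list has 1.12 with 0 genes called. The lysosome list has a median of 0.24, and the male-biased genes reach below -5.

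The number of iron genes called in each direction depended on the scaling, as it did for all genes. Of 31 genes 4 were higher and 4 lower with TMM factors (median 0.07), beside 16.5% and 15.4% of all genes. With library totals alone 11 were higher and 1 lower (median 0.23), beside 4341 and 478 of all 13164 genes (median 0.13). On log2(TPM + 1) 16 were higher and 0 lower (median 0.30), beside 4844 and 171 of all genes (median 0.16). Hamp, the hepatocyte hormone hepcidin that limits iron release, ran from 363.6 over 736 to 1114 CPM in the high group and from 567.5 over 924 to 1154 CPM in the low group. It did not pass (-0.24 ± 0.10 SE, adjusted p = 0.0808), and 4 of 20 high strains lay below every low strain. Higher were Hmox1, which frees iron from heme (66.9 and 34.03 CPM, 1.15 ± 0.19 SE), Slc40a1, the iron exporter ferroportin (469 and 315 CPM, 0.53 ± 0.09 SE), Slc11a2, an iron importer (27.1 and 14.99 CPM, 0.75 ± 0.17 SE), and Bmp6, the endothelial signal to Hamp (27.3 and 19.3 CPM, 0.59 ± 0.15 SE, adjusted p = 0.00224). Hmox1 and Slc40a1 are also on the Kupffer list. The Hamp regulators Id1 (0.17) and Smad7 (-0.03), the ferritin genes Fth1 (0.13) and Ftl1 (-0.12) and the transferrin receptor gene Tfrc (0.58) did not pass. Lower were the protease Tmprss6 (-0.24), the iron regulatory proteins Aco1 (-0.15) and Ireb2 (-0.37) and the heme-sensing repressor Bach1 (-0.20). Aco1 was positive and did not pass with library totals alone, and Aco1 and Bach1 were positive and did not pass on log2(TPM + 1), while Tmprss6 and Ireb2 stayed negative and lost the call there. Aco1 and Bach1 also lost the call without 19 and 16 of the 40 strains, left out one at a time. In BXD27/TyJ Tfrc had 102 CPM, against 4.86 to 48.5 CPM in the other 19 low strains, and without that strain it was higher (0.92, adjusted p = 0.0182), with 8 iron genes higher and 3 lower. Without BTBR T<+> tf/J instead, Tfrc differed by 0.40 (adjusted p = 0.378).

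Stress and growth programmes were mixed. Of 12 p53 and stress genes 5 were higher and 0 lower (median 0.68), led by the stress factor Atf3 (3.40 and 1.10 CPM, 1.78) and the secreted Gdf15 (8.94 and 2.55 CPM, 1.77 ± 0.27 SE). Of 18 NRF2 targets 4 were higher and 0 lower (median 0.11): the glutathione transferase Gstm3 (1.36), Hmox1, the pentose phosphate enzyme G6pdx (0.77) and Srxn1 (0.54). The classical target Nqo1 did not pass (0.34, adjusted p = 0.12). The share of NRF2 targets called is to be read beside the 16.5% of all genes called higher, and 9 of the 18 were higher with library totals alone and 10 on log2(TPM + 1). Of the p53 and stress genes 7 and 9 were higher on these scales, where 4341 and 4844 of all 13164 genes were called higher. Of 10 proliferation genes 6 were higher and 1, Tk1, was lower (median 0.77). Mki67 had medians of 9.17 and 3.26 CPM (1.69 ± 0.50 SE, adjusted p = 0.00819), which became 0.89 (adjusted p = 0.0881) without BTBR T<+> tf/J, and 1 proliferation gene was then higher. Without BXD27/TyJ instead, Mki67 differed by 2.25 (adjusted p = 0.00025). Of 16 interferon genes only Oas2 was higher (0.77, list median 0.03). Of 18 acute phase genes none was higher and Saa4 was lower (-0.88, list median -0.12). On log2(TPM + 1) 3 interferon genes and 3 acute phase genes were higher, with list medians of 0.29 and 0.16. Both counts are smaller shares than the 4844 of 13164 genes called higher on that scale, where the median gene was at 0.16. Without BXD27/TyJ 3 acute phase genes were higher.

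Part of the hepatocyte genes were lower, and their number depended on the scaling. Of 26 genes of hepatocyte metabolism 7 were lower, 0 higher and 2 had positive values (median -0.29). Of 23 genes of cholesterol synthesis 3 were lower, 0 higher and all 23 had negative values (median -0.33). Both counts stand beside 15.4% of all genes called lower. On log2(TPM + 1) 2 hepatocyte genes were lower and 1 higher (median -0.06), and 1 gene of cholesterol synthesis was lower (median -0.12). On that scale 171 of all 13164 genes were lower, and the median over all genes was 0.16. Cyp1a2, which oxidises caffeine and other planar compounds, had medians of 94.8 and 238 CPM (-1.90 ± 0.43 SE, adjusted p = 0.000879). Pmvk, an enzyme of the mevalonate pathway, had 18.9 and 34.4 CPM (-0.68 ± 0.17 SE). Albumin (Alb) took 7.70% ± 1.65 (SD, n = 20) of counts in the high group and 8.52% ± 1.36 (SD, n = 20) in the low group (-0.30, adjusted p = 0.0315, and 0.585 on log2(TPM + 1)), and the call was also lost without 7 of the 40 strains, left out one at a time. The lower genes with the smallest p had narrow spreads. The adenylate kinase Ak3 ran from 194 over 267 to 321.6 CPM in the high group and from 307 over 362 to 394 CPM in the low group (-0.41 ± 0.06 SE, adjusted p = 6.2e-07), with 16 of 20 high strains below every low strain. Azgp1, a secreted lipid-mobilising protein, had medians of 623.7 and 837 CPM (-0.47 ± 0.07 SE), and the glucuronosyltransferase Ugt1a6a 82.9 and 125 CPM (-0.65 ± 0.09 SE). Ugt1a6a shares exons with Ugt1a6b (-0.68), so their reads can be split wrongly. Bcl7a, Mrpl24, Upb1 and Cir1 differed by -0.31 to -0.42 and lost the call on log2(TPM + 1).

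Male-biased liver genes depend on the pulsed secretion of growth hormone in males and on STAT5b, and the major urinary proteins (Mup) are the best known of them. On a list of 16 such genes 8 were lower, 0 higher and all 16 had negative values (median -1.70). Mup7 ran from 0 over 0.562 to 110 CPM in the high group and from 0 over 15.7 to 4187 CPM in the low group (-5.54 ± 1.27 SE, adjusted p = 0.000871). Mup1 ran from 0 over 1.03 to 78.7 CPM against 0.0867 over 18.8 to 9605 CPM (-7.47 ± 1.30 SE, adjusted p = 2.47e-05). The groups overlap at the low end: 4 high strains lay below every low strain for Mup1 and none did for Mup7. The fitted sizes rested in part on single strains: that for Mup7 was -6.74 without BXD8/TyJ and -4.66 without BXD14/TyJ, and for Mup1 -8.69 without SJL/J. The Mup genes are near-identical copies, so single members are uncertain. Summed over all Mup genes, they took 0.000956% to 0.769% of counts in the high group (median 0.0252%) and 0.00449% to 2.70% in the low group (median 0.496%). The steroid dehydrogenase Hsd3b5 had medians of 0.343 and 5.45 CPM (-3.66 ± 0.82 SE, and -4.62 without AXB12/PgnJ), and the oxysterol hydroxylase Cyp7b1 7.01 and 24.8 CPM (-1.82 ± 0.40 SE, adjusted p = 0.000562). Serpina1e ran up to 586 CPM in the high group and 9706 CPM in the low group (-3.01 ± 0.64 SE). Igf1, a growth hormone target in both sexes, had medians of 567 and 574 CPM (-0.05, adjusted p = 0.78).

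**Figure D4:**
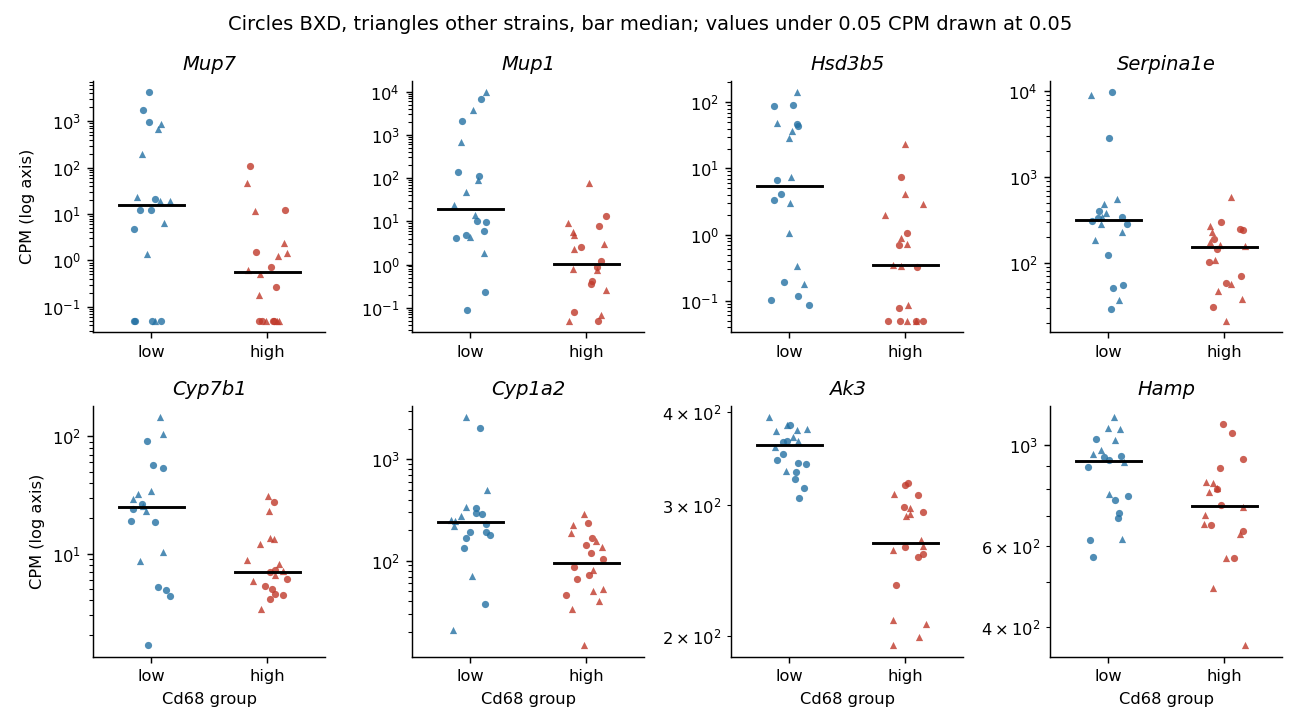
CPM of 8 genes in each of 40 strains on log axes, low-Cd68 group in blue and high-Cd68 group in red, circles for BXD and triangles for other strains, with a bar at the group median and values under 0.05 CPM drawn at 0.05. Mup7, Mup1 and Hsd3b5 spread over several powers of 10 in both groups, Ak3 is narrow, and Hamp did not pass the test.

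The comparison was also fitted in the BXD strains of the 40 and in the others alone; these are the same mice that gave the calls above, so neither subset is independent of them. In the 20 BXD strains alone 1513 genes were called, and in the other 20 strains alone 2253. Of the 2172 higher genes, 984 of 2149 tested were called higher among BXD strains and 1316 of 2134 among the others. The Kupffer list had medians of 1.03 and 1.18 in these subsets, with 14 of 18 genes higher in each, and the Fc and scavenger list 1.03 and 1.27, with 15 and 16 of 17 genes. Antigen presentation had 9 genes higher in each. Some other lists had fewer calls among BXD strains, as did all genes: 1010 of 13174 were higher there and 1449 of 13039 among the others. Monocyte genes called higher were 4 among BXD strains and 8 among the others, phagocyte activation genes 5 and 9, and endothelial genes 2 and 6. Of the proliferation genes 0 and 4 were higher, with medians of 0.21 and 1.34. Not all lists went this way: higher were 9 and 6 lysosomal, 3 and 2 iron, and 5 and 5 stellate and fibrosis genes. A test of the difference itself, the interaction of group and family, called 0 of 13164 genes (0%) by edgeR's quasi-likelihood test. At an unadjusted p under 0.05 there were 782 genes, and a share of about 0.05 passes that threshold when no gene differs.

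The 73 strains between the thresholds belong to neither group, but their Cd68 levels were part of the ranking that set the thresholds. A slope was fitted on those same Cd68 levels, and each library's scaling enters both Cd68 and the other genes. The slopes and their p-values are thus a description within these 73 strains, not an independent test of the relation. There 633 of 13979 genes (4.53%) changed along Cd68, 455 (3.25%) upward and 178 (1.27%) downward, by edgeR's test of a slope per doubling of Cd68 TPM. The span of Cd68 in these strains was only 10.4 to 21.2 TPM. Of the 2172 higher genes 409 were called upward there and 0 downward. Of the 2033 lower genes 128 were called downward and 1 upward. Ctss (slope 1.06, adjusted p = 3.98e-06), Lgals3 (1.25, adjusted p = 3.98e-06), Clec7a (1.59, adjusted p = 6.84e-05), Gpnmb (3.00, adjusted p = 0.000509), Axl (0.63, adjusted p = 0.0129) and Csf1r (0.61, adjusted p = 0.0155) were among those upward. Clec4f (0.49, adjusted p = 0.0767), Timd4 (0.62, adjusted p = 0.0913) and Marco (0.71, adjusted p = 0.48) did not pass. By list, 6 of 18 Kupffer genes, 9 of 17 Fc and scavenger receptors, 7 of 14 genes of lipid and phagocyte activation and 3 of 12 monocyte genes were upward. No gene of the antigen presentation, neutrophil or endothelial lists was. Mup7 was downward (-6.10, adjusted p = 0.00883), and it was the only one of the 16 male-biased genes that passed.

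Likeness to Cd68 was measured as Spearman's rho of log2(TPM + 1) over all ranked strains (115 panel libraries less the 2 left out). The 10 closest among genes with a median of at least 1 TPM were Psap (0.86), Lgmn (0.85), Lgals3 (0.85), Slc7a8 (0.85), Ctss (0.84), Ano6 (0.83), Abcg1 (0.83), Laptm5 (0.83), Cyba (0.83) and Nckap1l (0.82). Ano6 is a lipid scramblase, Abcg1 a sterol exporter, Cyba a subunit of the phagocyte oxidase and Nckap1l an actin regulator of blood cells. These correlations are descriptions, since the strains share parents and each library's scaling enters both values. Around the Cd68 locus, 43 of 125 genes tested within 5 Mb were called (34.4%), 22 higher and 21 lower, beside 31.9% of all genes.

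C57BL/6J mice on 2% iron against those on 50 ppm iron, 3 mice each and none of them in the panel, give the values of the same genes when diet rather than strain differed. There 2127 of 13560 genes were called (15.7%), 1155 higher (8.52%) and 972 lower (7.17%). Of 2148 panel-higher genes tested in both studies, 32.4% were higher on 2% iron and 10 genes were lower. The shared genes are 61.5% of the 1133 diet-higher genes tested in both. Of 2007 panel-lower genes 442 were lower on 2% iron and 10 higher, and they are 47.6% of 928 diet-lower genes. Clec4f had 144 to 154 CPM in the 3 mice on 2% iron and 35.9 to 54.2 CPM in the 3 on 50 ppm (1.62 ± 0.21 SE, adjusted p = 0.000534). Marco had 25.3 to 37.6 CPM against 2.03 to 5.97 CPM (3.23 ± 0.63 SE). Mup7 had 10.7 to 15.5 CPM against 725 to 9977 CPM (-8.29 ± 1.05 SE, adjusted p = 0.000489). None of these 3 overlapped between the diets.

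Several lists had different values in the 2 comparisons, and the difference between them was not tested. On 2% iron 17 of 18 Kupffer genes and 13 of 17 Fc and scavenger receptors were higher, beside 16 and 17 in the panel. Of the 12 antigen presentation genes 2 were higher on 2% iron, beside 9 in the panel, and Cd74 had 58.3 to 107 CPM against 39.1 to 76.8 CPM (0.33, adjusted p = 0.521). Of 14 phagocyte activation genes 3 were higher, beside 10, and Gpnmb had 1.87 to 6.23 CPM against 0.387 to 3.07 CPM (1.41, adjusted p = 0.176). Of 16 stellate and fibrosis genes 1 was higher, beside 12. In the other direction, 12 of 16 interferon genes and 15 of 31 iron genes were higher on 2% iron, beside 1 and 4 in the panel. Hamp had 686 to 771 CPM against 203 to 383.95 CPM (1.40 ± 0.30 SE, adjusted p = 0.00761), while the panel value was -0.24. Of the 16 male-biased genes 15 were lower on 2% iron, beside 8 in the panel. With 3 mice a group, leaving out replicate 1 of the 50 ppm mice gave 1003 genes for the diet in place of 2127, and leaving out replicate 1 or 3 of the 2% iron mice gave 1370 and 1267.

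**Figure D5:**
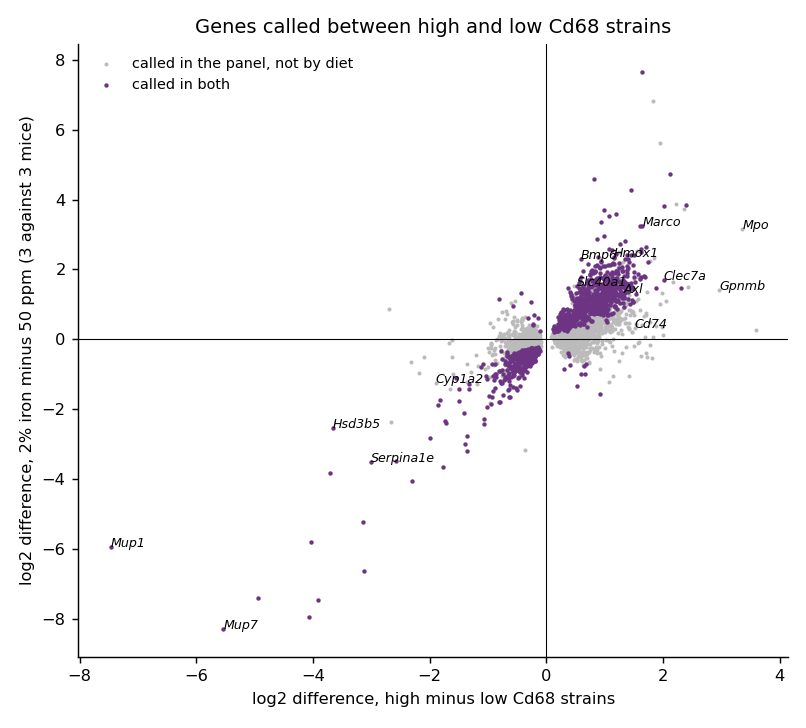
Each point is a gene called between high-Cd68 and low-Cd68 strains, placed by its log2 difference there (x) and by its log2 difference between 2% iron and 50 ppm diets in C57BL/6J mice (y); purple points were called in both. Most purple points lie in the upper right and lower left, with Marco and Hmox1 higher and Mup7 and Mup1 lower in both, while Cd74 and Gpnmb were called in the panel alone.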

How the data were processed

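Liver RNA of male mice was sequenced from a stranded mRNA library kit, per the labels. The authors deposited expected counts per gene, without normalization, and TPM for the same genes and mice. The submitters' processing notes name kallisto 0.46 and mm10, with no role given, and no strain-specific reference is named in the sources used here. Expected counts were rounded. Symbols and coordinates (counted from 1) come from GENCODE M21 on GRCm38, which matched 35612 of 35711 panel identifiers. Panel and diet tables were never pooled in a fit.

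Strains were ranked by Cd68 TPM, and Cd68 was taken out before testing. Genes were tested with edgeR 4.0.16 in R 4.3.3 (TMM factors, filterByExpr, two-sided quasi-likelihood test, Benjamini-Hochberg adjustment over all genes tested) with the strain as the replicate and no covariate. Calls are genes whose adjusted p is below 0.05. The diet contrast came from 1 fit of 5 diet groups of 3 mice. All adjusted p-values are from this test unless limma is named, which was run on log2(TPM + 1). CPM use TMM factors. Permutation tests drew 100000 resamples (Python 3.11.15, scipy 1.17.1). The tests were checked on simulated data. Totals were 9.86 to 20.57 M counts in the 40 libraries, and counting error limits genes of a few CPM.

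Members, the 23 gene lists (371 genes) and tests were chosen with earlier results of these data known, so a list's direction is not independent evidence. Lists are described by counts and medians, with no set test. Named genes are the 8 largest differences and 8 smallest p-values in each direction among called genes of at least 1 CPM, the 10 genes most like Cd68, and list members. Predicted genes and pseudogenes were passed over. The p-values measure the spread between single mice of different strains. Alternatives were RLE factors, other filters, DESeq2 1.42.0, limma 3.58.1, family as covariate, subsets of strains, other group sizes, other ranking genes and each strain left out.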

Additional observations from a re-analysis of the deposited data

How the results depend on the processing

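The count of genes called between the groups was 4205. It was 1513 in the BXD strains of the 40 alone, 2253 in the other strains alone, 1498 with 10 against 10 BXD strains, 2255 with strains ranked by Adgre1 and 2660 ranked by C1qa. Other settings gave 3139 to 5654, and leaving out each of the 40 strains 3819 to 4486. The Adgre1 ranking shared 11 high and 11 low strains, that by C1qa 13 and 14. Ranked by Adgre1, 109 of 172 named called genes kept the call and 56 kept only the sign. Among these 56 were Gpnmb, Mmp12, Trem2, Gdf15, Cyp1a2, Mup1 and Serpina1e. Ranked by C1qa, 129 kept the call and 41 only the sign, among them Trem2, Gdf15, Mup1, Hsd3b5 and Cyp7b1. The share of called genes that were higher was 51.7%, and 50.996% to 57.1% with a strain left out. It was 96.6% on log2(TPM + 1), 96.7% on log2(TPM + 0.1), 90.1% with library totals without TMM factors (chosen after seeing the data), 66.8% and 64.3% in BXD and other strains alone and 65.5% with 10 against 10 BXD strains. The interaction called 0 genes under both alternatives. The difference in library total was -0.57 M with 10 strains a group (p = 0.692, permutation test) instead of 0.07 M. The diet count of 2127 was 1208 with limma on log2(TPM + 1) and 1003 to 1640 without 1 mouse.

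Called genes changed sign as follows. On log2(TPM + 1) and log2(TPM + 0.1) the values were 0.013 and 0.013 for Lamp2, 0.039 and 0.041 for Mcoln1, 0.044 and 0.045 for Aco1 and 0.020 and 0.023 for Bach1, and Aco1 was 0.00059 with library totals. With strains ranked by Adgre1 they were -0.37 for Srxn1, -0.045 for Mki67, -0.033 for Ccna2, -0.036 for Ube2c and -0.16 for Mcm2. The cause was not tested, beyond fewer strains in the subsets. Of 172 named called genes none changed sign when a strain was left out, and 15 lost the call at least once. No paired analysis was possible because the strains of the 2 groups carry no shared replicate numbers and diet replicates are separate mice numbered within their diets. The T, B and NK lymphocyte list had no gene with 10 counts in every library, so that filter gave it no value. Genes of a few CPM, such as Mpo, rest on small counts in many strains.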

Other observations

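Ranking the same strains by other genes gave groups that shared few to many strains with the Cd68 groups. Of the 20 strains highest for Gpnmb 12 were high-Cd68 strains, as were 11 for the macrophage gene Adgre1, 10 for Clec4f, 8 for Hmox1, 7 for the collagen gene Col1a1, 6 for Lcn2, 5 for the cell cycle inhibitor Cdkn1a, 5 for the hemoglobin gene Hba-a1 and 3 for Hamp. Of the 20 strains lowest for each, 6, 11, 10, 10, 6, 5, 8, 3 and 5 were low-Cd68 strains. For Adgre1, Clec4f and Hmox1 no strain was at opposite ends of the 2 rankings. For Col1a1 3 of the 20 highest strains were low-Cd68 strains and 1 of the 20 lowest was a high-Cd68 strain. These counts were 3 and 4 for Hba-a1 and 1 and 3 for Hamp. For Mup7, 7 of the 20 highest strains were low-Cd68 strains and 2 were high-Cd68 strains, and of the 20 lowest 4 were low-Cd68 strains and 3 were high-Cd68 strains. These are counts over single mice with no test. Groups of 20 drawn at random from the ranked strains would also share some strains, and that expected number was not computed. The counts alone therefore do not separate overlap from chance, least of all the small ones for Hamp, Hba-a1 and Lcn2.

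The 129X1/SvJ mouse left out of the ranking had 8.26 TPM of Cd68 and the one kept in it 13.3 TPM, which is the only value for 2 mice of 1 strain in the panel. The library labelled BXD65/RwwJ had 17.96 TPM. The ferritin light chain gene Ftl1 had 32.5 CPM in the high-Cd68 strain SJL/J, while its medians were 4419 CPM in the high group and 4421 CPM in the low group.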
